A study of Mus musculus with 32 samples.

Results

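The brush border digestive enzymes are 9 genes whose products sit in the apical membrane of the small-intestinal enterocyte: the carbohydrate-splitting Sis, Lct and Treh, the peptide-splitting Mep1a, Mep1b, Anpep and Dpp4, and the alkaline phosphatases Alpi and Akp3. Every probe of the Illumina MouseWG-6 v2.0 BeadChip that the platform annotation gives to 1 of these symbols was taken, which made 12 of 45281 probes and 9 of 11484 named genes, with 2 probes for Sis, 3 for Mep1b and 1 for each of the others. Expression was measured on 32 arrays in 8 groups and 2 batches, to ask how loss of the Pygo and Bcl9 subunits of the Wnt enhanceosome changed normal intestinal epithelium and Apc-mutant adenomas. All mice are labelled C57BL/6J and were 120 days old, and per the study's methods the floxed and knockout lines had been crossed to C57BL/6 for a small number of generations only.

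The 4 crypt groups, with 3 arrays each in batch 1, were wt crypts, wt crypts with villin.Cre/+, Pygo1/2 DKO crypts (double knockout, Pygo1-/- in the germline and Pygo2 LoxP alleles deleted by villin.Cre) and Bcl9/B9l DKO crypts (Bcl9 and B9l LoxP alleles deleted by villin.Cre). The adenoma groups all carried the ApcMin allele: ApcMin controls without villin.Cre (6 arrays in batch 1 and 3 in batch 2), Pygo1/2 DKO (5 arrays, batch 1), Bcl9/B9l DKO (3 arrays, batch 1) and the quadruple knockout QKO, which combines both DKO genotypes (3 arrays, batch 2). Villin.Cre is active in intestinal epithelium, so stromal cells of a knockout adenoma keep the LoxP genes, and the adenoma controls differ from the knockouts by Cre as well as by the deleted alleles. Crypt samples were epithelium released from the small intestine by EDTA, with extraction fractions pooled, whereas adenomas were excised whole, so tissue and dissection cannot be told apart in any comparison of adenomas with crypts. The position of an adenoma or crypt sample along the intestine is not given, a sample typically pooled 2 or 3 RNA extractions of 1 mouse, and no label says that the arrays of a group came from different mice, so p-values measure the spread between these arrays.

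Enterocytes are absorptive cells whose apical surface is folded into microvilli, and the enzymes anchored there complete digestion, with sugars, amino acids and short peptides then taken up by neighbouring transporters. Their genes are switched on as cells leave the crypt and mature on the villus, and several of them are expressed in gradients along the length of the small intestine. Transcription of Sis and Lct is a classic model of intestinal gene control by the Cdx, Hnf1 and Gata factors, while TCF is the factor through which the Wnt enhanceosome acts.

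The 250 bases before the transcription start are shown for 4 members on which the results turn: Sis, for which 1 of 2 probes went undetected in DKO crypts, Lct, which was lower in adenomas of every batch 1 genotype, and the neighbouring phosphatases Alpi and Akp3, whose ApcMin adenoma and wt crypt arrays overlapped. They come from the RefSeq annotation of build GRCm38.p6, which held 8 of the 9 members. Capitals mark matches on either strand to 4 short motifs. TTTAT is the core of a site for the Cdx factors. The Gata factors bind the letters GATAA. For Hnf1 the letters searched, part of its longer site, were GTTAAT. The TCF motif was searched as CTTTGA. Matches of the first and second motif can overlap, as in the TTTATC of Lct. Each sequence is written 5′ to 3′ on the strand of its gene, at chr3:72967864-72968113 (minus strand) for Sis, chr1:128328319-128328568 (minus strand) for Lct, chr1:87101607-87101856 (minus strand) for Alpi and chr1:87124704-87124953 (plus strand) for Akp3.
Sis: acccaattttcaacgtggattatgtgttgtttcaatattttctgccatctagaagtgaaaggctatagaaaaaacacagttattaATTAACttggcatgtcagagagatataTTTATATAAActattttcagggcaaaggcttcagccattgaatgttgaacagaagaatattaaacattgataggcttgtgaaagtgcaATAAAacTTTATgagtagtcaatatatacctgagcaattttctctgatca
Lct: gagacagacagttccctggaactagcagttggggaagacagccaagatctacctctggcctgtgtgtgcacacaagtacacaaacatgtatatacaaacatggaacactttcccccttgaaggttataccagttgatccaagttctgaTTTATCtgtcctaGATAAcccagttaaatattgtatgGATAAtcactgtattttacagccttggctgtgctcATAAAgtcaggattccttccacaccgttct
Alpi: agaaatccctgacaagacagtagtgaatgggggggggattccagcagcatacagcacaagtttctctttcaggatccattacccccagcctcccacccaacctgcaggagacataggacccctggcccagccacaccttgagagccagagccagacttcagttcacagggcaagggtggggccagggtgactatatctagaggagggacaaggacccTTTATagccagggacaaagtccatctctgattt
Akp3: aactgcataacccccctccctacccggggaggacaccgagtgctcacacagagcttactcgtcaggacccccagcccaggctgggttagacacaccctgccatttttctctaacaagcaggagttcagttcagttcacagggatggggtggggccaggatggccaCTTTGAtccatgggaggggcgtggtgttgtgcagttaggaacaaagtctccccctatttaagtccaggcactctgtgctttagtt
TTTAT stood in 4 of the 8 member promoters, those of Sis, Lct, Alpi and Dpp4, and in 37.3% of 32851 mouse promoters of this length. GATAA stood in those of Lct, Mep1a and Dpp4 and in 22.6% of all promoters, GTTAAT in that of Sis and in 6.43% of all, and CTTTGA in those of Mep1a and Akp3 and in 13.8% of all. The windows of Anpep and Treh held none of these letters. A match is a description of the sequence and not a measured site.

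Values are normalised log2 intensities, where 1 unit is a doubling, and a probe is called detected on an array where its detection p, against negative control beads, was under 0.01. Batch 1 arrays had mean raw intensities of 307 to 445 and 12913 to 16319 detected probes, and batch 2 arrays 156 to 217 and 14081 to 14666. Crypt arrays detected all 6 general epithelial markers, whereas 7 of 8 fibroblast markers (Col1a1, Col1a2, Col3a1, Lum, Pdgfra, Sparc and Vim) and all 4 myeloid markers were detected on no wt crypt array. Of the deleted genes, Pygo2 had differences of -1.49 ± 0.19 (SE, adjusted p = 0.0492) in the crypts and -1.20 ± 0.16 (0.00298) in the adenomas of Pygo1/2 DKO. No tested probe of Pygo1, Bcl9 or Bcl9l (B9l) passed in the knockouts against their controls. Probes detected on no array of a comparison, such as that of Pygo1 among adenomas, were not tested. In QKO against batch 2 ApcMin adenomas Pygo2 did not pass either, at -0.35 ± 0.17 (adjusted p = 0.207). In the Bcl9/B9l DKO adenomas, the mean level of the exocrine pancreas markers was 14.4, 6.90 and 11.7 on replicates 1, 2 and 3, against 6.11 to 7.01 on the other batch 1 adenomas, so 2 of these 3 arrays stood apart.

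All 12 member probes were detected on every wt crypt and every villin.Cre crypt array. In wt crypts the mean level of the 9 absorptive enterocyte markers was 12.6 to 12.7. That of the 4 stem cell markers was 6.43 to 6.83, with Ascl2 and Smoc2 detected on no wt crypt array. How much villus epithelium the crypt samples held was not tested. The levels of the 12 probes on all batch 1 and batch 2 arrays are plotted by group.

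**Figure D1:**
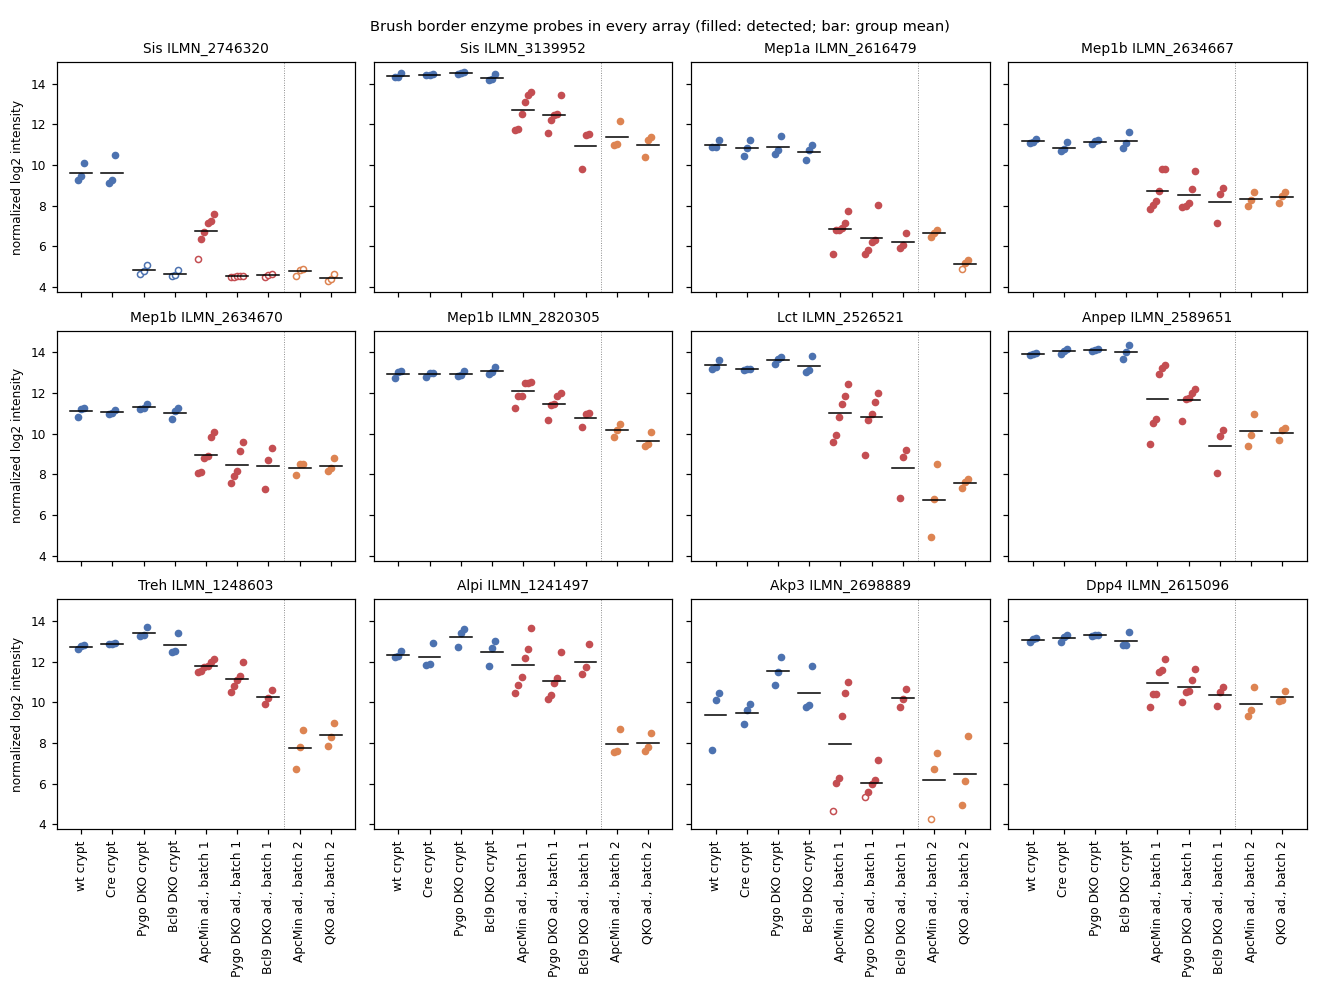
Normalised log2 level of each of the 12 probes (1 panel each) on the 32 arrays, by group; points are arrays, open points are arrays on which the probe was not detected, and bars are group means. Most probes stand higher in the crypt groups than in the adenoma groups, the Sis probe ILMN_2746320 drops out in both DKO crypt groups, and Akp3 spreads most within the ApcMin adenomas of batch 1.

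ApcMin adenomas were first compared with wt crypts within batch 1, 6 arrays vs 3, which asks what distinguishes a whole adenoma from normal epithelium. Of the 12 probes, 8 were lower in adenomas at an adjusted p under 0.01, 0 were higher and 4 did not pass, when 36.3% of all 18382 probes tested passed in either direction and 18.6% were lower. The 8 probes belonged to 6 genes: Sis (both probes), Mep1a, Mep1b (2 of 3), Lct, Treh and Dpp4. The median difference of the 12 probes was -2.13 on the log2 scale, against -0.088 over all probes tested. Adenoma and crypt arrays did not overlap for 10 of the 12 probes, all lower in adenomas, against 25.2% of all probes. All tests of this kind are limma's moderated test with Benjamini-Hochberg adjustment over every probe tested.

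Mep1a, the alpha subunit of the metalloendopeptidase meprin, had the largest difference of the members. Its level was 11.23, 10.88 and 10.88 in the wt crypts, and 5.63 at the lowest, 6.85 at the median and 7.72 at the highest in the ApcMin adenomas. The groups lay far apart, with a difference of -4.17 ± 0.35 (SE), or 18.0-fold (adjusted p = 3.19e-06). Mep1b, which encodes the beta subunit of meprin, was represented by 3 probes. ILMN_2634667 and ILMN_2634670 had differences of -2.43 ± 0.43 and -2.13 ± 0.42 (adjusted p = 0.000742 and 0.00144). The third Mep1b probe, ILMN_2820305, was at 12.72, 13.09 and 13.04 in wt crypts and at 11.28 to 12.56 in the adenomas, and its difference of -0.86 ± 0.27 did not pass (adjusted p = 0.0221). All 3 Mep1b probes therefore pointed down, but 1 of them by much less than the others.

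Among the carbohydrate-splitting enzymes, Lct, the lactase, stood at 13.27, 13.63 and 13.21 in wt crypts and at 9.58, 11.16 and 12.44 (lowest, median, highest) in ApcMin adenomas. No adenoma reached the crypt range, and the difference was -2.35 ± 0.54, or 5.10-fold (adjusted p = 0.00392). Treh, the trehalase, fell by only 0.97 ± 0.17, or 1.96-fold, but with little spread between arrays (adjusted p = 0.000661). Its levels were 12.64, 12.82 and 12.79 in wt crypts and 11.48, 11.76 and 12.16 in adenomas. For Sis, the sucrase-isomaltase that splits sucrose and starch fragments, ILMN_3139952 was at 14.54, 14.33 and 14.34 in wt crypts and 11.74, 12.81 and 13.60 in adenomas, a difference of -1.71 ± 0.40 (adjusted p = 0.00442). The other Sis probe, ILMN_2746320, was at 10.09, 9.45 and 9.25 in wt crypts and 5.38, 6.92 and 7.57 in adenomas, where 5 of 6 arrays detected it, a difference of -2.86 ± 0.41 (adjusted p = 0.000169). Both Sis probes thus fell between wt crypts and ApcMin adenomas.

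The 2 exopeptidases behaved less evenly. Dpp4, which removes N-terminal dipeptides, fell by 2.12 ± 0.44 on the log2 scale (adjusted p = 0.00215), from 13.11, 12.97 and 13.17 to 9.75, 10.96 and 12.12. Anpep, aminopeptidase N, was at 13.96, 13.94 and 13.89 in wt crypts and at 9.47, 11.83 and 13.37 in adenomas. No adenoma reached a crypt level, yet the adenomas spread so widely (SD 1.67, n = 6) that its difference of -2.22 ± 0.80 did not pass (adjusted p = 0.0367).

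The alkaline phosphatases Alpi and Akp3, neighbouring paralogues on chromosome 1 that act on lipopolysaccharide and dietary phosphate esters, were the only members whose adenoma and crypt arrays overlapped. Alpi was at 12.56, 12.27 and 12.22 in wt crypts and at 10.46, 11.74 and 13.67 in adenomas, with a difference of -0.50 ± 0.58 (adjusted p = 0.497). Akp3 was at 7.65, 10.11 and 10.45 in wt crypts and at 4.68, 7.80 and 11.00 in adenomas, with a difference of -1.44 ± 1.33 (adjusted p = 0.384). Both differences were smaller than the spread between adenomas. Cross-hybridisation between the paralogues was not tested.

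The calls for Lct and for Sis ILMN_3139952 did not survive leaving out any 1 of the 3 wt crypt arrays, and the call for Dpp4 did not survive leaving out wt crypt replicate 1 or 3. Without the detection filter 4 of the 12 probes passed. Because tissue is measured in bulk, fewer enterocytes and less RNA per enterocyte cannot be told apart.

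Other genes of the brush border were read from lists. Of 12 other brush border hydrolases tested, 9 were lower in ApcMin adenomas than in wt crypts and 0 higher, with a median difference of -1.96. Examples were Plb1, a phospholipase (-3.16, adjusted p = 1.15e-08), Xpnpep2, a membrane aminopeptidase P (-3.35, 1.14e-05), Dpep1, a dipeptidase (-2.30, 0.000187), and Enpp7, the intestinal alkaline sphingomyelinase (-4.20, 0.000289). Of 13 structural genes of the microvillus tested, 8 were lower and 0 higher, with a median of -0.94, among them Tmigd1 (-3.76, 2.36e-08) and the motor protein gene Myo1a (-1.19). Plb1 and Tmigd1 were detected on no ApcMin adenoma array of batch 1, so the size of their differences is set by background. Of 10 intestinal transcription factors, Hnf4g (-1.79, adjusted p = 5.95e-05), Klf4 (-1.47) and Cdx1 (-1.16) were lower and Klf5 (0.59) and Elf3 (0.64) higher, and 5 did not pass.

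Markers of other cells moved with this comparison. The mean level of the 8 fibroblast and matrix markers was 4.84 to 5.02 in wt crypts and 8.55 to 9.49 in ApcMin adenomas of batch 1, and all 8 were higher. That of the 4 myeloid markers was 4.81 to 4.97 and 8.79 to 9.34, and all 4 were higher. The 6 general epithelial markers lay at 10.9 to 11.1 in crypts and 10.8 to 11.4 in adenomas, with 2 higher and 1 lower, and of 9 absorptive enterocyte markers 4 were lower, with a median difference of -0.77. Position markers moved as well. The mean level of the 4 distal markers was 12.9 to 13.1 in wt crypts and 7.75 to 9.64 in ApcMin adenomas, and 3 of them were lower, Fabp6, the ileal bile acid-binding protein, by the most (-7.56, adjusted p = 5.20e-09), while 1 of 4 proximal markers was higher. In the tissue comparisons within Pygo1/2 DKO and within Bcl9/B9l DKO all 4 distal markers were lower, with Fabp6 at -8.20 and -7.86. The part of these cell types and of position in the member differences was not tested.

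**Figure D2:**
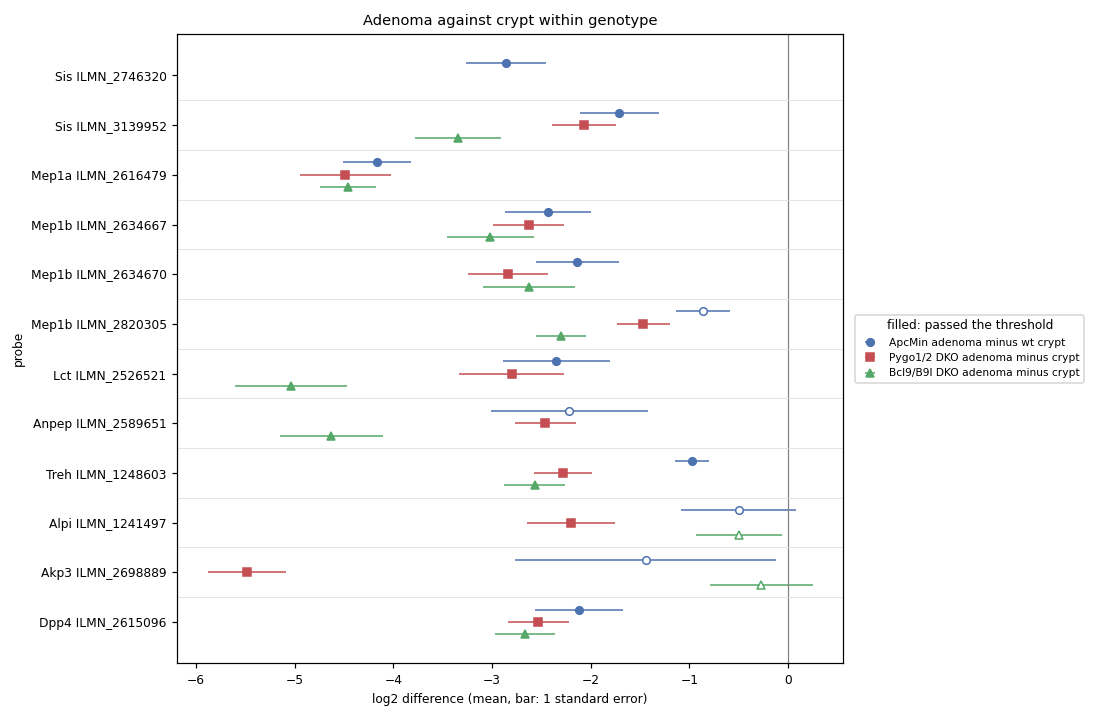
Log2 difference of adenomas minus crypts for each of the 12 probes in the ApcMin (against wt), Pygo1/2 DKO and Bcl9/B9l DKO genotypes; bars are 1 standard error to either side and filled points passed an adjusted p under 0.01. Akp3 lies near 0 for Bcl9/B9l DKO and at -5.49 for Pygo1/2 DKO, while Mep1a lies between -4.17 and -4.49 in each genotype.

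The same tissue comparison could be made within each DKO genotype. In Pygo1/2 DKO, 5 adenoma arrays vs 3 crypt arrays, 11 of 11 probes tested were lower in adenomas, when 41.9% of all probes passed and 20.4% were lower. The median member difference was -2.53, and no adenoma array overlapped a crypt array for any of the 11 probes, against 26.7% of all probes wholly lower. The largest was that of Akp3, at 10.88, 12.22 and 11.51 in Pygo1/2 DKO crypts and 5.59, 7.18, 5.33, 5.98 and 6.18 in Pygo1/2 DKO adenomas. Akp3 thus fell by 5.49 ± 0.40, or 44.8-fold (adjusted p = 1.04e-06). Mep1a fell by 4.49 ± 0.46 (adjusted p = 1.23e-05) and Alpi by 2.20 ± 0.45 (adjusted p = 0.00147), and the differences of the other 8 probes ran from -2.84 to -1.47. In the same comparison 11 of 12 other hydrolases and 11 of 13 structural genes were lower.

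In Bcl9/B9l DKO, 3 arrays vs 3, 9 of 11 probes were lower in adenomas, when 22.1% of all probes passed and 10.2% were lower. The median member difference was -2.67. Lct fell by 5.04 ± 0.57, or 32.9-fold (adjusted p = 0.000384), from 13.15, 13.85 and 13.04 in crypts to 6.86, 9.22 and 8.83 in adenomas. Anpep fell by 4.63 ± 0.52 (adjusted p = 0.000375) and Mep1a by 4.46 ± 0.28 (adjusted p = 2.78e-05). The exceptions were again the phosphatases, with -0.49 ± 0.44 for Alpi (adjusted p = 0.399) and -0.27 ± 0.52 for Akp3 (adjusted p = 0.709). Of the other brush border hydrolases, 10 of 12 were lower here. The exocrine pancreas markers had a median difference of 4.80, but none of them passed. Of these markers 4 were detected on no Bcl9/B9l DKO crypt array, so the size of that median depends on background. Without the 2 pancreas-rich arrays 1 adenoma array is left, assumed to vary like the crypt arrays, from which alone the spread then comes. In that fit 4 of the 11 probes passed, those of Mep1a, Lct and Anpep and Sis ILMN_3139952.

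Genotypes were then compared among adenomas of batch 1. Against ApcMin adenomas, Pygo1/2 DKO adenomas had 1 of 12 probes lower and 0 higher, when 0.117% of all probes passed. That probe was Sis ILMN_2746320, detected on 5 of 6 ApcMin arrays and on none of the 5 Pygo1/2 DKO arrays, whose signals read 4.56, 4.47, 4.56, 4.54 and 4.49. It was at least 2.57-fold lower (adjusted p = 0.00477), a bound set by the lowest signal among detected probes on each Pygo1/2 DKO array. The call was lost when ApcMin replicate 2 or 9 or any 1 of the Pygo1/2 DKO arrays was left out, and also on plain log2 values, on the deposited values, without the detection filter and with the replicate block, which gave the highest adjusted p of these (0.0832). The other Sis probe was at 12.22, 13.44, 12.47, 12.53 and 11.60 in Pygo1/2 DKO adenomas and at 11.74 to 13.60 in ApcMin adenomas, with overlap and a difference of -0.24 ± 0.38 that did not pass (unadjusted p = 0.535 in limma). All 12 differences were negative, with a median of -0.46 against 0.019 over all probes, but the other 11 did not pass. The widest of these was that of Akp3, at -1.91 ± 0.99 (adjusted p = 0.426), followed by Alpi at -0.80 ± 0.54 (adjusted p = 0.560).

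Bcl9/B9l DKO adenomas had 1 of 12 probes lower than ApcMin adenomas and 0 higher, when 1.56% of all probes passed. Treh was at 9.90, 10.22 and 10.63 in Bcl9/B9l DKO adenomas, below the lowest ApcMin array at 11.48, with a difference of -1.53 ± 0.21, or 2.88-fold (adjusted p = 0.00194). The call was lost without Bcl9/B9l DKO replicate 2 and, at a difference of -1.55, without the 2 pancreas-rich arrays (adjusted p = 0.0469), where the 1 array left is assumed to vary like the ApcMin adenomas. For 5 of the 12 probes the arrays of the groups did not overlap, all lower in Bcl9/B9l DKO, against 6.61% of all probes. Besides Treh these were Lct (-2.72 ± 0.66, adjusted p = 0.0400), both Sis probes and Mep1b ILMN_2820305 (-1.31 ± 0.30, adjusted p = 0.0295), and none of these 4 passed 0.01. Lct was at 6.86, 9.22 and 8.83 in Bcl9/B9l DKO adenomas, and Sis ILMN_3139952 at 9.81, 11.50 and 11.53 (-1.75 ± 0.50, adjusted p = 0.0745). Sis ILMN_2746320 was again detected on no Bcl9/B9l DKO array (at least 2.33-fold lower, adjusted p = 0.0110). The median of the 12 differences was -0.97, against 0.036 over all probes. None of the 11 other hydrolases and none of the 12 structural genes tested passed in either DKO against ApcMin, whereas 2 of 9 absorptive enterocyte markers were lower in Bcl9/B9l DKO.

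**Figure D3:**
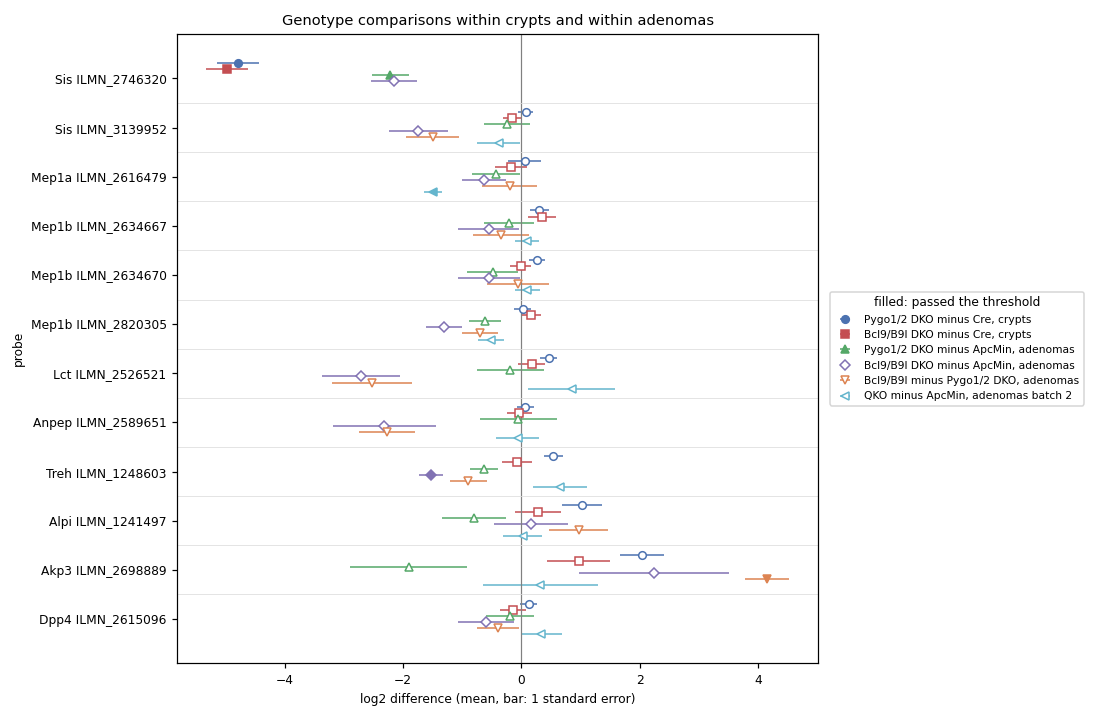
Log2 difference between genotypes for each of the 12 probes, in adenomas (each knockout minus ApcMin of the same batch, and Bcl9/B9l DKO minus Pygo1/2 DKO) and in crypts (each DKO minus villin.Cre); bars are 1 standard error to either side and filled points passed the threshold of the comparison. Sis ILMN_2746320 lies far below 0 in both DKO crypt groups, and the other filled points are Sis ILMN_2746320 in Pygo1/2 DKO adenomas, Treh in Bcl9/B9l DKO adenomas, Mep1a in QKO adenomas and Akp3 between the DKO adenomas.

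The DKO adenomas were also set against each other, 3 Bcl9/B9l DKO arrays vs 5 Pygo1/2 DKO arrays. Of 11 probes tested, 1 was higher in Bcl9/B9l DKO and 0 lower, when 0.662% of all probes passed. Akp3 was at 10.16, 10.68 and 9.77 in Bcl9/B9l DKO adenomas and at 5.59, 7.18, 5.33, 5.98 and 6.18 in Pygo1/2 DKO adenomas. The groups were clearly separate, with a difference of 4.15 ± 0.38, or 17.8-fold (adjusted p = 0.000282), and the call held when any 1 array was left out but not without the detection filter (adjusted p = 0.0174). Its paralogue Alpi was at 12.88, 11.75 and 11.41 vs 10.18, 12.50, 10.35, 10.98 and 11.22, with a difference of 0.97 ± 0.50 that did not pass (adjusted p = 0.489). Anpep pointed the other way, at 8.07, 10.21 and 9.90 vs 12.03, 12.21, 10.61, 11.75 and 11.72, without overlap (-2.27 ± 0.48, adjusted p = 0.0413). Lct had a difference of -2.53 ± 0.67 (adjusted p = 0.106).

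Akp3 varied as widely between adenomas of 1 genotype. On ApcMin arrays of batch 1 it read 10.45, 11.00 and 9.33 on replicates 1, 3 and 5, and 6.27, 4.68 and 6.03 on replicates 2, 7 and 9, where it was not detected on replicate 7. Anpep split the same arrays the other way, at 10.71, 9.47 and 10.54 on replicates 1, 3 and 5 and 13.23, 13.37 and 12.95 on replicates 2, 7 and 9. Slc40a1 and Osr2, from the lists of genes that mark position along the small intestine, differed between these arrays too. Slc40a1 was also among the genes most like Akp3 over the 14 batch 1 adenomas (Pearson's r = 0.94). Its likeness to Akp3 is therefore no separate evidence on position. Slc40a1, the iron exporter of the duodenum, read 14.11, 14.16 and 12.96 on replicates 1, 3 and 5 and 11.84, 9.90 and 11.69 on replicates 2, 7 and 9. Osr2 ILMN_2770979, a probe of a transcription factor gene on the distal list, was not detected on replicates 1, 3 and 5 and read 9.53, 10.58 and 10.41 on replicates 2, 7 and 9. The other position markers are not given by array. In ApcMin adenomas against wt crypts, standard errors were 0.87 to 1.37 for Slc40a1, Cybrd1 and Osr2. They were 0.21 to 0.29 for Fabp6, Slc51a, Slc51b, Gata4 and Onecut2. Between the DKO adenomas 2 of 4 proximal markers, Slc40a1 and Cybrd1, were higher in Bcl9/B9l DKO, and 1 of 4 distal markers, Osr2, was lower, while Gata4, Onecut2, Fabp6, Slc51a and Slc51b did not pass. Slc40a1 was at 12.98, 13.24 and 13.67 in Bcl9/B9l DKO and at 11.27 to 11.61 in Pygo1/2 DKO (difference 1.86 ± 0.20, adjusted p = 0.000758), and Osr2 at a difference of -3.47 ± 0.50 (adjusted p = 0.00504). The part of position along the intestine in the Akp3 difference was not tested.

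**Figure D4:**
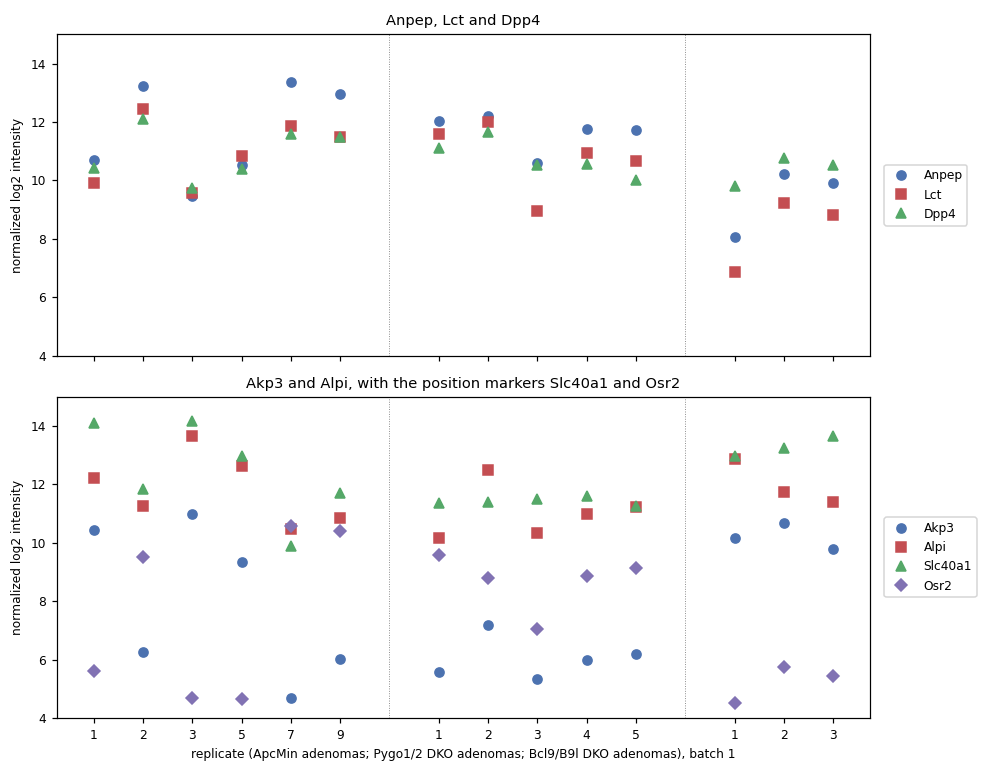
Normalised log2 levels of Anpep, Lct and Dpp4 (upper panel) and of Akp3 and Alpi with the position markers Slc40a1 and Osr2 (lower panel) on each adenoma array of batch 1, by genotype and replicate; each point is 1 array. On the ApcMin arrays, Akp3 is high on replicates 1, 3 and 5 and low on 2, 7 and 9, and Anpep, Lct and Dpp4 are highest on replicates 2, 7 and 9.

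Across the 14 batch 1 adenomas, which share 1 normalisation and hold 3 genotypes, some members formed 2 sets by correlation, given here as description. Anpep went with Lct (Pearson's r = 0.93), with Sis ILMN_3139952 (0.88) and with Dpp4 (0.83), and Akp3 with Alpi (0.81), while Akp3 ran against Anpep (-0.79) and Lct (-0.62). Treh and Mep1a were less clearly placed, at 0.56 and 0.43 with Anpep, 0.18 and 0.17 with Alpi, and -0.18 and -0.24 with Akp3. In the 12 crypt arrays Akp3 and Lct correlated positively (0.73), as did Akp3 and Alpi (0.61). The first pair of Mep1b probes had r = 0.91 over the adenomas, whereas the Sis probes had r = 0.50 over the adenomas and 0.14 over the crypts. Among 10747 candidate genes the levels most like Akp3 in the adenomas were those of Pdx1 (0.94), Slc40a1 (0.94) and Car2 (0.93), and among 10034 in the crypts those of Slc40a1 (0.98) and Slc30a10 (0.96). Most like Lct in the adenomas was Rdh9 (0.95), most like Anpep were Tmem86a (0.94) and Ace (0.93), most like Mep1b ILMN_2820305 were Gchfr (0.95) and Asah2 (0.95), and most like Sis ILMN_3139952 was Cyp2b10 (0.95).

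In batch 2, QKO adenomas were compared with ApcMin adenomas, 3 arrays vs 3, which asks what loss of all 4 proteins does. Of 11 probes tested, 1 was lower and 0 higher, when 4.68% of all probes passed. Mep1a was at 6.65, 6.47 and 6.78 in ApcMin and at 5.34, 5.19 and 4.91 in QKO adenomas, where 2 of 3 arrays detected it. It fell by 1.49 ± 0.15, or 2.81-fold (adjusted p = 0.000902), without overlap, and passed in every alternative run and with any 1 array left out. Its partner Mep1b did not pass with any probe (differences 0.09, 0.10 and -0.51). For the others the differences were 0.85 ± 0.73 for Lct (adjusted p = 0.475), 0.65 ± 0.46 for Treh (0.381), 0.34 ± 0.34 for Dpp4 (0.546), 0.32 ± 0.98 for Akp3 (0.854), 0.02 ± 0.33 for Alpi (0.975), -0.06 ± 0.36 for Anpep (0.932) and -0.39 ± 0.36 for Sis ILMN_3139952 (0.509). Sis ILMN_2746320 was detected on none of these 6 arrays and was not tested.

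Among the other lists, 1 of 10 hydrolases, Naaladl1, an intestinal peptidase gene (-2.47, adjusted p = 0.00121), and 1 of 12 structural genes, Tmigd1 (-0.75, adjusted p = 0.00841), were lower in QKO. Tmigd1 was detected on no QKO array, so the size of its difference is set by background. Of the 4 distal position markers 3 were lower, with Fabp6 at 11.49, 11.74 and 11.80 in batch 2 ApcMin adenomas and detected on no QKO array. The mean level of the 8 fibroblast and matrix markers was 6.16 to 6.73 in ApcMin and 5.44 to 5.75 in QKO adenomas. Of these 8 genes, 4 were detected on no QKO array. Among goblet cell markers Muc2 (-1.62), Tff3 (-1.08) and Clca1 (-2.97) were lower in QKO and the others did not pass. Among Paneth cell markers Itln1 was higher (1.66) and the others did not pass. Whether any of these shifts had a part in the Mep1a difference was not tested.

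The bridged fit over all 20 adenoma arrays, with batch as a term, set QKO against each DKO. None of the 12 probes passed against Bcl9/B9l DKO (0.307% of all probes passed) or against Pygo1/2 DKO (2.57%). Apart from Sis ILMN_2746320, the nearest was Treh, 2.12 ± 0.53 higher in QKO than in Bcl9/B9l DKO (adjusted p = 0.0565). That Sis probe was detected on no array of these 3 groups, so its bridged differences are not given. The bridged differences rest on the ApcMin arrays of each batch. Against the sum of both DKO effects, the only 1 of 12 probes past the threshold (0.188% of all probes passed) was Sis ILMN_2746320. It was at background in the QKO, both DKO and the batch 2 ApcMin adenomas, so this contrast says nothing of how QKO departs from the sum. Treh was at 2.72 ± 0.67 (adjusted p = 0.0501).

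The ApcMin adenomas of the batches themselves differed, which bears on every bridged value. In a normalisation of the 9 ApcMin arrays alone, batch 2 had 1 of 12 probes lower than batch 1 and 0 higher, when 14.6% of all probes passed. Treh fell by 2.59 ± 0.34 (adjusted p = 0.000656), while on the deposited values, which may carry a batch adjustment, it differed by -0.20. Levels normalised within each batch were 7.83, 6.74 and 8.66 in batch 2 and 11.48 to 12.16 in batch 1. Alpi had a difference of -2.46 ± 0.61 (adjusted p = 0.0119), and Lct of -3.02 ± 0.80 (adjusted p = 0.0157). In the same fit 4 of 9 absorptive enterocyte markers, 5 of 8 fibroblast markers and 4 of 4 myeloid markers were lower in batch 2, and 3 of 4 distal position markers were higher, with Fabp6 higher by 6.79. Batch, tissue makeup and position cannot be told apart here.

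In normal crypts, each DKO had lost the signal of 1 Sis probe. Crypts with villin.Cre and wt crypts without it, 3 arrays vs 3, did not differ for any of the 12 probes at an adjusted p under 0.05 (0.0258% of all probes passed), with the widest difference at -0.32 ± 0.15 for Mep1b ILMN_2634667 (adjusted p = 0.999, unadjusted 0.0744). Against villin.Cre crypts, each DKO had 1 of 12 probes lower and 0 higher, when 0.124% of all probes passed for Pygo1/2 DKO and 0.0698% for Bcl9/B9l DKO. In both it was Sis ILMN_2746320. It read 10.09, 9.45 and 9.25 in wt crypts and 9.26, 9.12 and 10.50 in villin.Cre crypts. In the Pygo1/2 DKO crypts it read 4.77, 4.62 and 5.11, and in the Bcl9/B9l DKO crypts 4.54, 4.58 and 4.85, with no array detecting it. All 6 arrays with intact genes were therefore bright and all 6 DKO arrays dark. It was at least 12.7-fold lower in Pygo1/2 DKO (adjusted p = 0.00216) and at least 13.8-fold lower in Bcl9/B9l DKO (adjusted p = 0.00281). Leaving out any 1 array kept both calls, but without the detection filter, with all 45281 probes tested, neither passed (adjusted p = 0.0567 and 0.0927), and on the deposited log2 values the differences were -2.41 and -2.46.

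The other Sis probe showed no such loss on the same arrays. ILMN_3139952 was at 14.41, 14.45 and 14.48 in villin.Cre crypts, 14.53, 14.47 and 14.56 in Pygo1/2 DKO crypts and 14.25, 14.47 and 14.17 in Bcl9/B9l DKO crypts. Its differences were 0.07 ± 0.13 (adjusted p = 0.814) and -0.15 ± 0.15 (adjusted p = 1.000). The raw signal of ILMN_3139952 on these arrays was 18926 to 28266, where the highest signal of any probe was 28330 to 36241. Whether changes are compressed at that level was not tested. Where in Sis the probes lie was not analysed here, and which of them follows the enzyme was not tested. In adenomas, ILMN_2746320 was detected on 5 of the 6 batch 1 ApcMin arrays and on none of the 14 other adenoma arrays, whereas ILMN_3139952 was detected on all 20.

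Few probes behaved like ILMN_2746320. Of 12249 probes detected on all 6 wt and villin.Cre crypt arrays, 6 were detected on no DKO crypt array: those of Sis, Bex4, Ccdc77, St6gal1, Sucnr1 and Ube2cbp, named here after their values were seen. The lowest wt or villin.Cre level was 9.12 for Sis against a highest DKO level of 5.11, whereas for the others the lowest wt or villin.Cre level was 5.89 to 6.19. Sis and Sucnr1 lie on chromosome 3, which holds 4.93% of the named probes detected on all 6 arrays. Pygo2 and Bcl9 lie on chromosome 3 as well, with 142 protein-coding genes between Sis and Pygo2 and 346 between Sis and Bcl9. Bcl9l and Pygo1 lie on chromosome 9, as does Ube2cbp. The strain of origin of the chromosome around each targeted allele was not analysed here.

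Beyond Sis, the largest crypt difference was that of Akp3. It read 9.91, 8.95 and 9.64 in villin.Cre crypts and 10.88, 12.22 and 11.51 in Pygo1/2 DKO crypts, without overlap, a difference of 2.04 ± 0.37 that did not pass (adjusted p = 0.0823). It passed under 3 of the alternative settings, with adjusted p down to 0.0361. Alpi (1.02 ± 0.34, adjusted p = 0.193), Treh (0.54 ± 0.16, 0.156) and Lct (0.46 ± 0.15, 0.179) also had positive differences in Pygo1/2 DKO crypts that did not pass. For 4 of the 12 probes the Pygo1/2 DKO crypts lay wholly above the villin.Cre crypts, against 9.63% of all probes. The mean level of the proximal position markers was 8.22 to 8.53 in villin.Cre and 9.09 to 9.89 in Pygo1/2 DKO crypts, though no proximal marker passed. That of the absorptive enterocyte markers was 12.64 to 12.72 in villin.Cre and 12.86 to 12.94 in Pygo1/2 DKO crypts. Stem cell markers lay at 6.57 to 6.86 and 5.79 to 6.13, and Paneth cell markers at 11.8 to 12.2 and 10.4 to 11.2. General epithelial markers overlapped. The part of position and of cell makeup was not tested. In Bcl9/B9l DKO crypts Akp3 was at 9.76, 11.77 and 9.88 (0.97 ± 0.53, adjusted p = 1.000). Between the DKO crypt groups 0 of 11 probes passed (0.0899% of all probes), and none of the other hydrolases (11 or 12 tested) or of the 13 structural genes passed in any crypt comparison.

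Whether a knockout acted differently in adenomas than in crypts was tested as the difference of the differences within batch 1. None of the 12 probes passed 0.01 for Pygo1/2 DKO (0.0412% of all probes passed) or for Bcl9/B9l DKO (0.447%). For Pygo1/2 DKO the widest value was that of Akp3, at -3.95 ± 1.49 (adjusted p = 0.191). For Bcl9/B9l DKO, Treh stood at -1.45 ± 0.33 (adjusted p = 0.0406) and Lct at -2.89 ± 0.88 (adjusted p = 0.130). Sis ILMN_2746320 gives no such value, since it was undetected in both tissues of either DKO, and read 9.12 to 10.50 in villin.Cre crypts and 5.38 to 7.57 in batch 1 ApcMin adenomas.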

How the data were processed

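RNA of 32 samples was hybridised to 32 single-colour arrays. The authors exported probe intensities and detection p-values from GenomeStudio 2011.1 without background correction, and both columns of the deposited table were used. The deposited log2 table (variance-stabilised and quantile-normalised by the authors) served as an alternative. The study's methods also removed variation between the batches with ComBat, and the sources do not say whether this table holds that step. On it, ApcMin batches differed at 0 of 18455 probes (adjusted p under 0.01) and at 3 by unadjusted p under 0.05. Upstream, the authors used limma 3.34.9.

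Here, intensities were background-corrected, quantile-normalised and logged with neqc (limma 3.58.1, R 4.3.3, offset 16), per batch, over all 20 adenomas for bridged fits and over 9 ApcMin arrays for the batch comparison. Probes with a detection p under 0.01 on 1 or more arrays of a fit were tested (lmFit, eBayes), with thresholds of 0.01 (adenomas, tissue differences) and 0.05 (crypts) on adjusted p. Platform symbols were used; 27664 probes had none and 9 had several. All probes of the 9 members are named, and up to 4 list genes of smallest adjusted p. Members and lists were chosen with earlier results of these data known. In 17 comparisons, 7 alternatives (another scale, normalisation or filter, a replicate block, pancreas-rich arrays left out) and every leave-out of 1 array were run. Code was tested on simulated data. The number of arrays limits precision. Same-numbered replicates did not consistently deviate together. Mep1b promoter sequence is not reported here. Figures used matplotlib 3.10.9.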

Additional observations from a re-analysis of the deposited data

Results flagged for a closer look

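Sis ILMN_2746320 came up because its fitted contrast of QKO adenomas with the sum of both DKO effects was 3.75 ± 0.59 on the log2 scale in the bridged limma fit (adjusted p = 0.00521, 3 QKO arrays). The probe was detected on no QKO, Pygo1/2 DKO, Bcl9/B9l DKO or batch 2 ApcMin adenoma and on 5 of 6 batch 1 ApcMin adenomas. The value is therefore a difference among background signals apart from those 5 arrays, and says nothing of how QKO departs from the summed effects. The call was lost when ApcMin replicate 2, 6 or 9, Bcl9/B9l DKO replicate 1 or 3 or QKO replicate 2 or 3 was left out. No array stood far from the rest of its group in 24 checks of groups of 4 to 6 arrays.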

How the results depend on the processing

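Of 1184 single-probe values recomputed under the alternatives, 1143 kept their direction and side of the threshold, 36 no longer passed, 5 newly passed and 0 reversed past the threshold. Of 2150 leave-out values, 26 no longer passed and 8 newly passed. The numbers of member probes passing changed as follows. For ApcMin adenomas against wt crypts (8) it was 4 without the detection filter, 4 with the replicate block and 5 to 8 with 1 array left out. For Pygo1/2 DKO against ApcMin adenomas (1) it was 0 on plain log2 values, on the deposited values, without the filter, with the stricter filter (detected on every array of a group) and with the block, and 0 to 1 with 1 array left out. For Bcl9/B9l DKO against ApcMin adenomas (1) it was 0 without the filter, with the block and without the pancreas-rich arrays, 2 when normalised over the comparison alone and 0 to 2 with 1 array left out. For Bcl9/B9l DKO against Pygo1/2 DKO adenomas (1), and for each DKO against villin.Cre crypts (1), it was 0 without the filter, where more probes were tested, and for Pygo1/2 DKO crypts 2 on plain log2, on deposited values and with the stricter filter. For QKO set against both DKO effects added together (1) it was 0 on deposited values, without the filter, with the stricter filter and without the pancreas-rich arrays, and 0 to 1 with 1 array left out. For QKO against Bcl9/B9l DKO and against Pygo1/2 DKO (0 each), and for the Bcl9/B9l DKO effect in adenomas minus in crypts (0), it was 0 to 1, with 1 only without ApcMin replicate 1. For ApcMin batch 2 against batch 1 (1) it was 0 on deposited values, where Treh differed by -0.20, and 1 to 2 with 1 array left out. For Bcl9/B9l DKO adenomas against crypts (9) it was 4 without the pancreas-rich arrays and 8 to 9 with 1 array left out. Leaving out the pancreas-rich arrays was chosen after seeing the data. The cause of these changes was not tested except where fewer arrays or more probes entered.

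Replicate numbers did not pair the arrays in any comparison (correlations of same-numbered deviations -0.45 to 0.47), so the replicate block is only an alternative. It changed the number of passing members in no comparison besides those named and Pygo1/2 DKO adenomas against crypts, where Mep1b ILMN_2820305 no longer passed (-1.43, adjusted p = 0.0108). For QKO against batch 2 ApcMin adenomas no replicate block was possible, because these groups share no replicate numbers. Signals at background give only bounds, which among the members touches Sis ILMN_2746320 and, on 1 array of each group affected, Mep1a and Akp3. Among the list genes with printed values it touches Plb1 and Tmigd1 in the ApcMin adenomas of batch 1, and Tmigd1 and Fabp6 in the QKO adenomas. It also touches Osr2 on part of the batch 1 ApcMin adenoma arrays. Detection of Osr2 on the Bcl9/B9l DKO adenoma arrays is not given, so its difference between the DKO adenomas may be set by background.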
